A study of Homo sapiens with 6 samples.

Results

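KLF factors (Krüppel-like factors) are transcription factors that bind CACCC and GC-rich DNA through zinc fingers near their C terminus, as the related SP factors do. KLF2, KLF4, KLF5, KLF6 and KLF7 act mostly as activators, KLF3 recruits the corepressor CtBP, and KLF9, KLF10, KLF11 and KLF13 recruit the corepressor Sin3. In epithelia KLF4 is linked to differentiation and growth arrest and KLF5 to proliferation of basal progenitor cells, and KLF6 is known as a growth-restraining factor in the prostate. The 10 genes KLF2, KLF3, KLF4, KLF5, KLF6, KLF7, KLF9, KLF10, KLF11 and KLF13 were taken by symbol from the 64253 genes of each count table, and all 10 had enough reads to be tested. They were chosen from the fold changes and calls of CdGAP-depleted against control cells, so their levels and fold changes are given as a description and no p-value is printed for them.

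The cells were PC-3, a human prostate cancer line. In the shCdGAP group (3 libraries) they carried a lentiviral short-hairpin RNA against CdGAP, a GTPase-activating protein for Rac1 and Cdc42 encoded by ARHGAP31, and in the shCon group (3 libraries) a control hairpin. CdGAP-depleted PC-3 cells were grown from single cells after puromycin selection, the clone that was sequenced is not stated, and cloning is not stated for control cells, so depletion of CdGAP and a difference between a clone and the control cells cannot be told apart. The libraries held 33182796 to 43154039 counted reads, and ARHGAP31 lay between 26.4 and 27.1 CPM (reads of a gene scaled by the library total after TMM correction) in shCdGAP and between 58.2 and 60.6 in shCon libraries. Of 6 genes expected in PC-3 cells, all were present at mean levels from 83.0 CPM, and EPCAM, KRT19, VIM and CD44 rose in shCdGAP cells, with log2 fold changes from 0.63 to 1.35. Of the genes expected to be low or absent, KLK3, TMPRSS2 and PTPRC had at most 2 reads in any library, while PECAM1, an endothelial marker, had 93 to 261 reads. In shCdGAP replicate 2, 12.2% of the 16439 tested genes lay more than 0.5 on the log2 scale from the mean of the other shCdGAP libraries, against 6.30% to 8.03% in the same measure for the other 5 libraries. For the KLF members that depend on this library, the log2 fold change is therefore given with and without it.

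KLF5 was the member with the lowest fold change and KLF6 the member with the highest. KLF5 (ENSG00000102554, GRCh38 chromosome 13 from 73054976 to 73077542) had 33.8, 34.0 and 33.5 CPM in shCdGAP and 112, 112 and 113 CPM in shCon libraries. The 3 libraries of each group lay close together and the groups were far apart, at 33.8 ± 0.221 and 112 ± 0.653 CPM (SD, n = 3 each). The log2 fold change of KLF5 was -1.73 (SE 0.0352, the standard error of the fitted value), or 0.301 of the control level. KLF6 (ENSG00000067082, chromosome 10 from 3775996 to 3785281) had 122, 113 and 120 CPM in the shCdGAP libraries and 43.6, 44.9 and 44.6 CPM in the shCon libraries. Every shCdGAP library was thus well above every shCon library, with a log2 fold change of 1.41 (SE 0.0415), or 2.66 times the control level. In bulk samples, fewer cells with a transcript and less of it per cell cannot be told apart. The log2 fold change of KLF5 stayed between -1.75 and -1.71, and that of KLF6 between 1.38 and 1.44, under all settings tried.

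The sequences before the transcription start of KLF5, KLF6 and KLF4 are shown because these genes carry the main contrasts, KLF4 for its position described further on. Each is the 250 bases upstream of the RefSeq start (GRCh38.p14) nearest to the 5′ end of the gene in the count tables, written 5′ to 3′ on the strand of the gene. Capitals mark CACCC and CCGCCC on either strand (GGGTG and GGGCGG on the other), and matches may share bases. The KLF5 window is chr13:73054726-73054975 on the plus strand, the KLF6 window chr10:3785210-3785459 on the minus strand and the KLF4 window chr9:107489770-107490019 on the minus strand. The RefSeq start lies 0 bases from the 5′ end of the counted gene for KLF5, 72 for KLF6 and 713 for KLF4. The KLF6 window thus lies partly, and the KLF4 window wholly, inside the gene as counted.
KLF5: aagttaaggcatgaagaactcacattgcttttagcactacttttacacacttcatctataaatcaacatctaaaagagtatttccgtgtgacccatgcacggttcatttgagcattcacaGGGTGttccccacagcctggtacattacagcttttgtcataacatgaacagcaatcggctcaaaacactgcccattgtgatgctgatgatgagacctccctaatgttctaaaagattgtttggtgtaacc
KLF6: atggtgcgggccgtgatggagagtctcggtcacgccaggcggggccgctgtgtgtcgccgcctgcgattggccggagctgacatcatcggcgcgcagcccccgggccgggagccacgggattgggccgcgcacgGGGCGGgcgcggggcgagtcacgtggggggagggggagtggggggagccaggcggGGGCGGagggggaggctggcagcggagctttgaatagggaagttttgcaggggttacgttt
KLF4: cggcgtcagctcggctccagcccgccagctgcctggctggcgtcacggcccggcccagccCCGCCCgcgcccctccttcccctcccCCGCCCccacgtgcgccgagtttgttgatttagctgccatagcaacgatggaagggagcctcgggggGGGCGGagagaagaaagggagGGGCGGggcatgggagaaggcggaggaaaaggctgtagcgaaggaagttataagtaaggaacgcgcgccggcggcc
The KLF5 window held 1 CACCC-type match and 0 CCGCCC-type matches, the KLF6 window 0 and 2, and the KLF4 window 0 and 4. KLF5 had 2 upstream windows, and only the 1 nearest to the 5′ end of the gene was searched. The counts for KLF5 therefore do not describe its other start. Of 8 members with such a sequence, each searched in its nearest window only, 3 held CACCC and 5 held CCGCCC. Among 35097 windows of the same length, 54.7% held CACCC and 42.6% held CCGCCC. A match here is a run of letters and not a binding site.

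**Figure D1:**
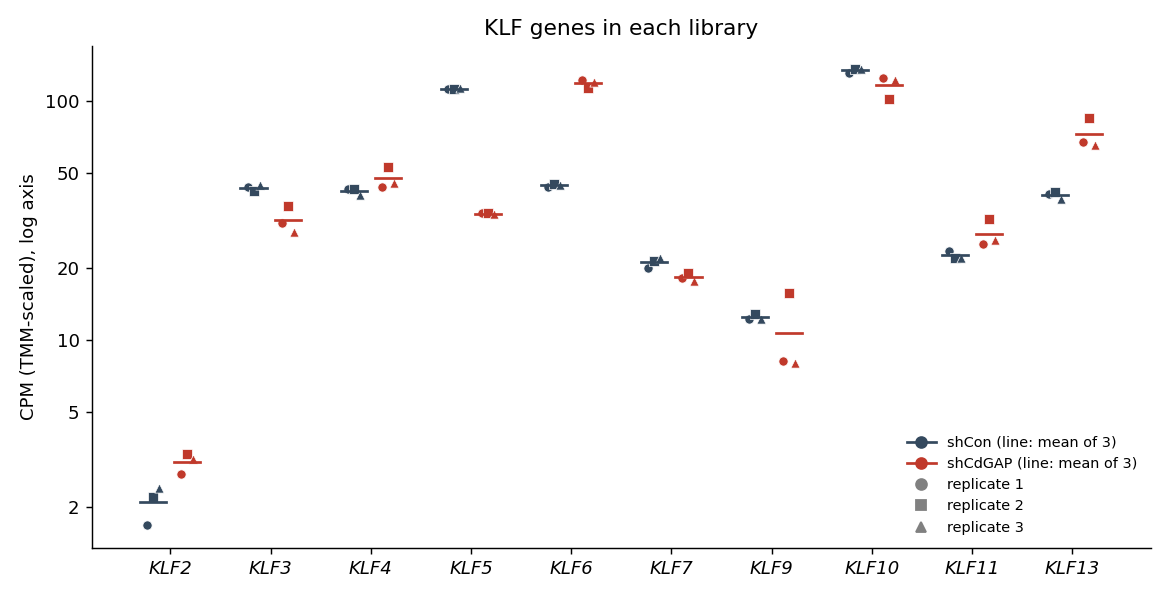
CPM of the 10 KLF genes on a log axis, with 1 point per library (shape by replicate number) and a line at the mean of 3 libraries per group. KLF5 is lower and KLF6 higher in all shCdGAP libraries with little spread, while shCdGAP replicate 2 of KLF9 stands at 15.8 CPM above the shCon libraries and replicates 1 and 3 stand below them.

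With an edgeR quasi-likelihood adjusted p-value under 0.01 and a log2 fold change beyond 1 in either direction, KLF6 alone of the 10 members was higher and KLF5 alone was lower, where 8.56% and 4.19% of all tested genes were called in the same directions. At the adjusted p-value alone, KLF6 and KLF13 were higher and KLF5 and KLF3 lower (2 and 2 of 10), where 24.1% and 22.0% of the tested genes were, or 46.2% in either direction. In 5 members every shCdGAP library lay above every shCon library (KLF2, KLF4, KLF6, KLF11 and KLF13), and in 4 members below (KLF3, KLF5, KLF7 and KLF10). The corresponding shares among all tested genes were 34.4% and 32.7%, or 67.1% together. The median log2 fold change was -0.015 over the 10 members and 0.0089 over all tested genes. Since the members were listed with this comparison known, nothing is read from these counts. Without shCdGAP replicate 2 the counts at the adjusted p-value alone were 4 higher and 5 lower, all members but KLF4, where 30.0% and 30.0% of the tested genes were called, and without shCdGAP replicate 1 only KLF5 remained among the lower genes.

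Among the other factors that act mostly as activators, KLF2 was the scarcest. KLF2, known for quiescence of endothelial cells and lymphocytes, had 2.76, 3.33 and 3.17 CPM in shCdGAP and 1.69, 2.20 and 2.42 CPM in shCon libraries, a log2 fold change of 0.56 (SE 0.161), and 0.49 without shCdGAP replicate 2. These levels come from 71 to 145 reads per library, the lowest counts among the members. KLF4 (ENSG00000136826) had 43.7, 53.0 and 45.4 CPM in shCdGAP and 42.7, 42.9 and 40.5 CPM in shCon libraries. The KLF4 groups did not overlap, but replicate 1 of shCdGAP lay less than 1 CPM above the nearest shCon library. The log2 fold change was 0.17 (SE 0.0718), and 0.072 without shCdGAP replicate 2. KLF7, which takes part in the growth of neuronal processes, had 18.2, 19.1 and 17.7 CPM in shCdGAP and 20, 21.4 and 22.0 CPM in shCon libraries, a log2 fold change of -0.20 (SE 0.0594), and -0.24 without shCdGAP replicate 2.

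KLF3, the CtBP-binding member, was lower in CdGAP-depleted cells. It had 30.8, 36.4 and 28.3 CPM in the shCdGAP libraries and 43.8, 41.9 and 44.4 CPM in the shCon libraries, a log2 fold change of -0.44 (SE 0.0849). The highest shCdGAP library was again replicate 2, and the remaining libraries gave a log2 fold change of -0.56. An antisense gene that overlaps the 5′ end of KLF3, KLF3-AS1, had 10 to 26 reads per library, and the counting used strand. KLF12, a CtBP-binding relative outside the list, fell from 12.8 ± 0.428 CPM to 5.98 ± 0.223 CPM (SD, n = 3 each), with a log2 fold change of -1.10 (adjusted p = 3.34e-06, with SE 0.0746). KLF8, the other CtBP-binding relative, had at most 2 reads in any library.

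The 4 Sin3-binding members differed in direction. KLF13, a regulator of cytokine genes in lymphocytes, had 67.2, 84.8 and 65.1 CPM in shCdGAP and 40.8, 41.7 and 38.9 CPM in shCon libraries. All shCdGAP libraries were higher, with a log2 fold change of 0.84 (SE 0.0980), and 0.70 without replicate 2. KLF11, a TGFβ-inducible factor, had 25.2, 32 and 26.1 CPM in shCdGAP and 23.5, 22.1 and 22.1 CPM in shCon libraries, a log2 fold change of 0.30 (SE 0.0898), and 0.17 without replicate 2. KLF10, its closest relative and also TGFβ-inducible, had 124, 102 and 122 CPM in shCdGAP and 131, 136 and 136 CPM in shCon libraries, a log2 fold change of -0.21 (SE 0.0697), and -0.14 without replicate 2. KLF10 and KLF11 thus lay on opposite sides of the controls, each with groups that did not overlap, as was so for 67.1% of all tested genes. Neither was called at the adjusted p-value alone. KLF9, a glucocorticoid-inducible factor, had 8.16, 15.8 and 8.03 CPM in shCdGAP and 12.2, 12.9 and 12.2 CPM in shCon libraries. It was the only member whose groups overlapped, with 1 shCdGAP library above and 2 below all controls. Its log2 fold change was -0.21 (SE 0.267) with all libraries and -0.63 without shCdGAP replicate 2. KLF16, a Sin3-binding relative outside the list, had 81.3 ± 2.34 and 79.4 ± 0.890 CPM (SD, n = 3 each) in shCdGAP and shCon cells, with overlapping groups and an adjusted p of 0.465.

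Compared per length, as RPKM (CPM per kb of merged exons), KLF10 was the most abundant of the 10 in control cells at 33.7 ± 0.720 (SD, n = 3). KLF5 followed at 28.8 ± 0.168 RPKM, KLF4 at 11.5 ± 0.360, KLF6 at 7.22 ± 0.103 and KLF3 at 6.89 ± 0.209. KLF11, KLF13, KLF9 and KLF7 had 4.92, 4.3, 2.40 and 2.28 RPKM, and KLF2 was lowest at 1.04 ± 0.185. Only the ranges of the neighbours KLF9 and KLF7 overlapped in this order. In CdGAP-depleted cells KLF10 remained first at 29.1 ± 3.03 RPKM, KLF6 moved from the fourth to the second place at 19.2 ± 0.735, and KLF5 from the second to the fourth at 8.68 ± 0.0568. KLF4 kept its place at 13 ± 1.35 RPKM, and KLF13, at 7.69 ± 1.15, overlapped with KLF5 in range. The ranges also overlapped between KLF13 and KLF11 (6.05 ± 0.807 RPKM), between KLF11 and KLF3 (5.06 ± 0.663). KLF9, at 2.06 ± 0.859 RPKM, overlapped with both KLF7 (1.98 ± 0.0742) and KLF2 (1.53 ± 0.145), whose ranges were apart. KLF5 made up 28.0% ± 0.197 (SD, n = 3) of the summed RPKM of the 10 genes in control cells and 9.21% ± 0.0754 in CdGAP-depleted cells, and KLF6 7.01% ± 0.0408 and 20.4% ± 1.03. The sum itself was 103 ± 0.865 RPKM in shCon and 94.3 ± 1.29 RPKM in shCdGAP libraries, so the sum differed far less than either gene. KLF16 had 26.9 and 27.5 RPKM in shCon and shCdGAP cells, a level near that of KLF5 in controls.

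**Figure D2:**
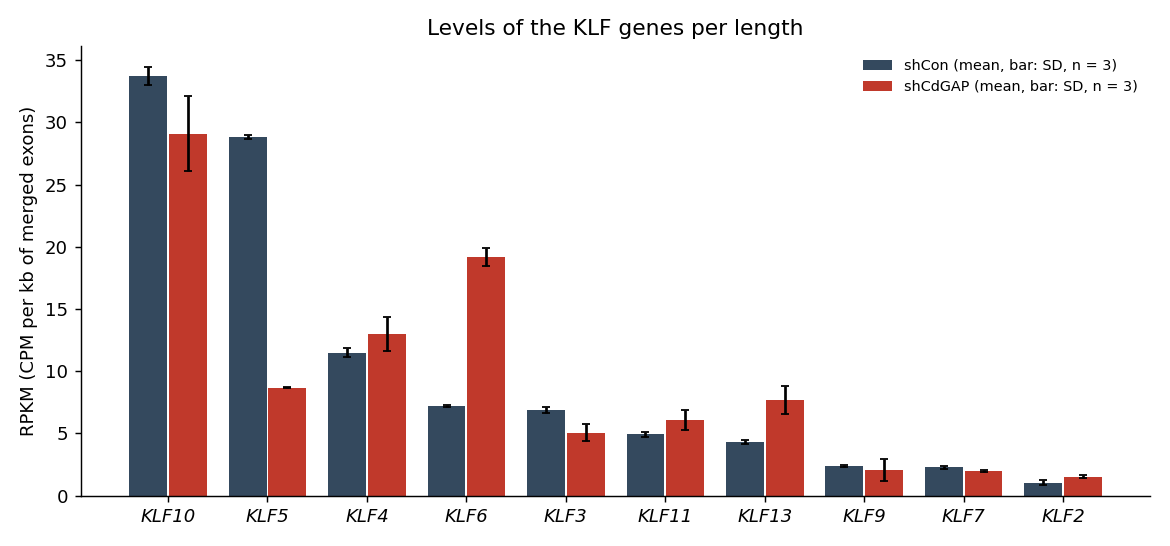
Level of the 10 KLF genes as RPKM (mean of 3 libraries, bars: SD) in shCon and shCdGAP cells, ordered by the shCon level. KLF5 goes from 28.8 to 8.68 and KLF6 from 7.22 to 19.2, while KLF10 is highest in both groups.

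KLF5 was compared with genes around it on chromosome 13. As neighbours, 15 other tested genes were taken whose midpoints lay no more than 5 Mb from that of KLF5 and whose average log2 CPM reached 3. All 15 were below 0, with log2 fold changes from -2.14 (SLAIN1) to -0.95 (LMO7) and a median of -1.58, and 14 passed the thresholds for lower genes. KLF5, at -1.73, lay -0.15 from that median, with 2 neighbours lower and 13 higher than itself. PIBF1, the nearest on the side of lower coordinates, fell by 1.61 on the log2 scale (adjusted p = 5.78e-07, with SE 0.0822). On the other side the nearest neighbour was KLF12, a member of the same family, at a distance of 0.844 Mb. The log2 CPM of KLF5 exceeded the mean log2 CPM of these neighbours by 1.59, 1.46 and 1.6 under shCdGAP and by 1.70, 1.72 and 1.75 under shCon. Measured this way the groups still did not overlap, but they differed by -0.17, against the log2 fold change of -1.73 for KLF5 itself. The part of gene dose, and of regulation, in the level of KLF5 was not tested.

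KLF4 (chromosome 9 from 107484852 to 107490482) stood apart from the genes around it. Its 22 neighbours, chosen as for KLF5, were all below 0, with log2 fold changes from -1.13 (HSDL2) to -0.05 (PTPN3, adjusted p = 0.351) and a median of -0.78. KLF4, at 0.17, was above all 22, and 0.95 above their median. RAD23B, the nearest neighbour, at -0.180 Mb, fell by 0.85 on the log2 scale (adjusted p = 1.81e-07, with SE 0.0352). The log2 CPM of KLF4 minus the mean log2 CPM of the 22 neighbours was -0.48, -0.21 and -0.41 under shCdGAP and -1.23, -1.21 and -1.30 under shCon. Relative to its neighbours KLF4 was therefore higher in every shCdGAP library, by 0.88 on average, although its own level differed little between the groups. The distance from the median of the neighbours was 0.84 without shCdGAP replicate 2.

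**Figure D3:**
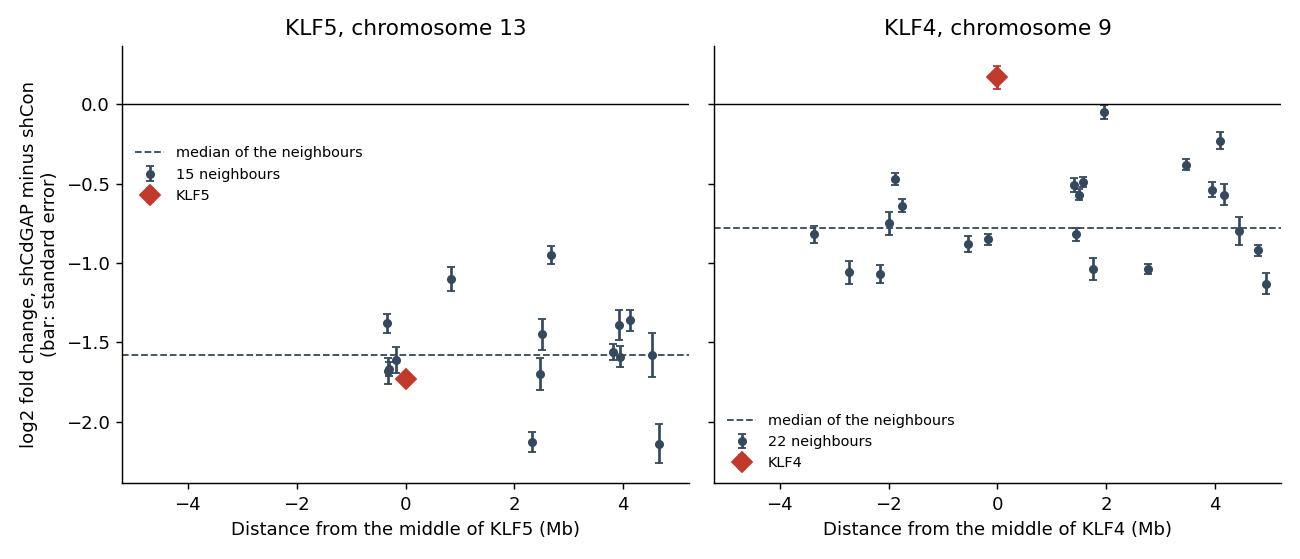
Log2 fold change (shCdGAP minus shCon, bars: standard error) of KLF5 with 15 neighbours and KLF4 with 22 neighbours against distance in Mb, with the median of the neighbours as a dashed line. KLF5 lies among its neighbours near their median of -1.58, and KLF4 lies above 0 and above all of its neighbours, whose median is -0.78.

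The neighbours of the other members were mostly near 0. KLF6, at 1.41, was above all of its 22 neighbours on chromosome 10, whose median log2 fold change was 0.084 and whose highest value was 1.13. KLF13 was above 20 of 22 neighbours on chromosome 15 (median 0.045), and KLF2 above 132 of 138 on chromosome 19 (median -0.057). KLF3 was below 22 of 26 neighbours on chromosome 4 (median -0.071). KLF10 was below 25 of 27 neighbours on chromosome 8, whose median was 0.23, so the difference of -0.44 from that median was larger than its own log2 fold change of -0.21. KLF9 lies on chromosome 9 far from KLF4, and its 15 neighbours had a median of -0.29 against -0.21 for KLF9. KLF7 and KLF11, both on chromosome 2, lay -0.17 and 0.24 from the medians of their 25 and 22 neighbours.

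Replicate 2 of shCdGAP departed from the other libraries of its group in a set of members. Its log2 CPM lay above the mean of replicates 1 and 3 by 0.96 for KLF9, 0.36 for KLF13, 0.32 for KLF11, 0.30 for KLF3 and 0.25 for KLF4, and below it by -0.27 for KLF10. KLF5, at 0.012, and KLF6, at -0.094, showed almost none of this. In the 3 shCon libraries the largest departure of any member was -0.45, for KLF2 in replicate 1, and among the other members it was at most 0.11 in size. Among all tested genes, 3.16% departed at least as far as KLF9 in shCdGAP replicate 2, 19.9% as far as KLF13 and 95.4% as far as KLF5. The groups of 3 are too small for a test of single libraries. The 6 genes expected in PC-3 cells were all highest in replicate 2 among the shCdGAP libraries, by CPM. For KRT19 the values were 451 CPM there against 298 and 294, and for CD44 only 547 against 541 and 520. PECAM1 had 261 reads in replicate 2 against 96 and 93.

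**Figure D4:**
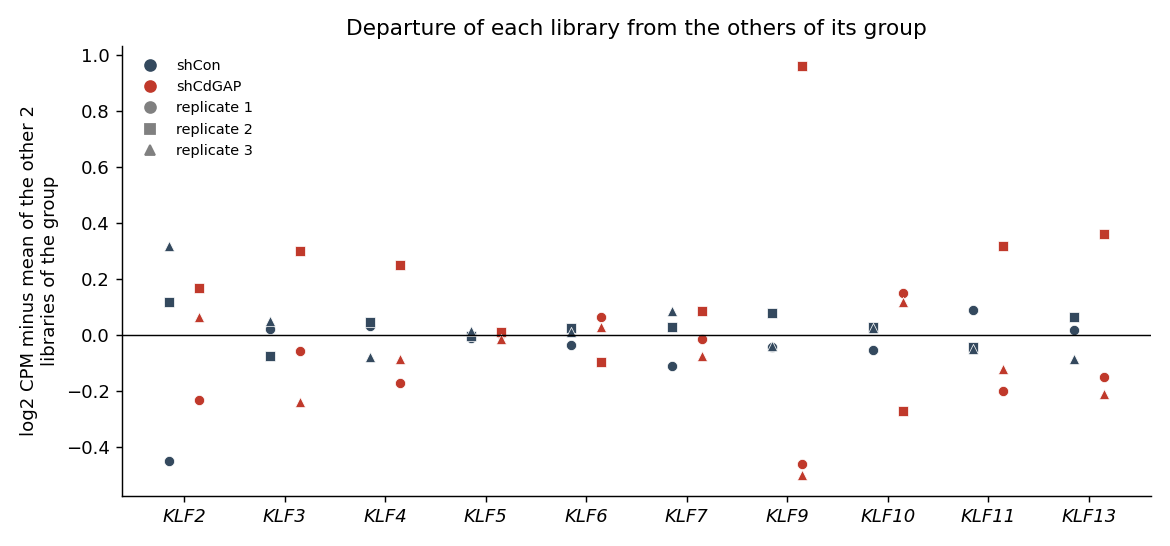
Log2 CPM of each library minus the mean of the other 2 libraries of its group for the 10 KLF genes, with shCon and shCdGAP by colour and replicate number by shape. Replicate 2 of shCdGAP reaches 0.96 for KLF9 and lies above 0 for 8 of 10 members, while KLF5 stays near 0 in all libraries.

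The rest of the family and the SP factors were given the same test. KLF1 and KLF14 had no read in any library, which allows up to 3 reads per library, KLF15 had 1 read in all, and KLF18 was not analysed here. KLF17 had 50 to 85 reads per library and overlapping groups, with an adjusted p of 0.421. Of 7 SP genes tested out of 9, SP4, SP6 and SP8 rose and SP1 and SP3 fell by the adjusted p-value alone (3 and 2 genes, where 24.1% and 22.0% of all tested genes did), each by less than 1 on the log2 scale. SP1, the founding and widely expressed factor of that family, fell to 133 ± 4.16 CPM from 172 ± 2.61 CPM (SD, n = 3 each), a log2 difference of -0.37 (adjusted p = 2.96e-05, with SE 0.0364). SP3, which binds the same GC boxes as SP1, had a log2 fold change of -0.32 (adjusted p = 7.08e-05). SP8, a developmental factor of limb and brain, rose to 67.6 ± 5.46 CPM from 44.1 ± 1.4 CPM (SD, n = 3 each), by 0.62 on the log2 scale (adjusted p = 3.54e-05). SP4 and SP6 had log2 fold changes of 0.50 and 0.91 (adjusted p = 0.000101 and 9.15e-05). SP2 and SP5 did not pass (adjusted p = 0.188 and 0.189).

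**Figure D5:**
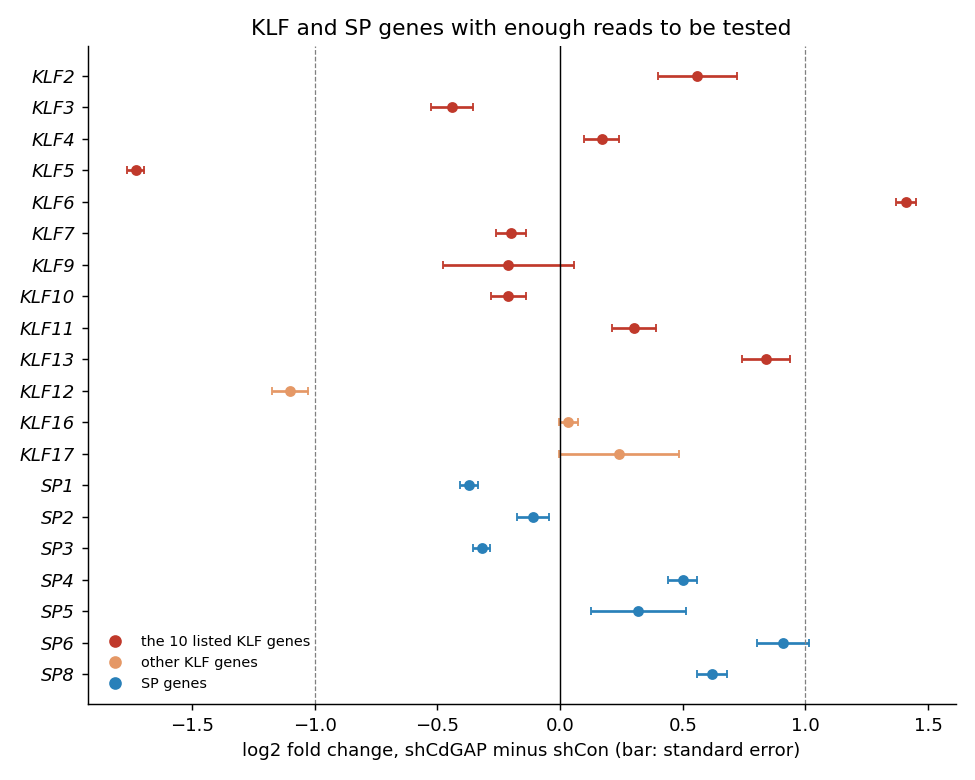
Log2 fold change (shCdGAP minus shCon, bars: standard error) of the 10 listed KLF genes, the other KLF genes and the SP genes that had enough reads, with dashed lines at -1 and 1. KLF5, KLF6 and KLF12 lie beyond the dashed lines, KLF16 lies at 0.034, and the SP genes lie between -0.37 and 0.91.

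Genes that act upstream of the family were followed as lists, at an adjusted p-value under 0.01. In endothelium the MEKK3, MEK5, ERK5 and MEF2 cascade drives KLF2 and KLF4, and the CCM complex restrains it. The list pools both, and of its 10 genes 4 were higher, 1 lower and 5 not called (median log2 fold change 0.048), so that its calls in either direction were near the background of 46.2%. Since activating and restraining genes are counted together, no direction of the pathway is read from this count. HEG1, the receptor of the CCM complex and the list's most abundant gene, rose by 0.22 on the log2 scale (adjusted p = 0.00282), a call lost without shCdGAP replicate 1 or any of the 3 shCon libraries (adjusted p from 0.0113 to 0.0254). CCM2, an adaptor of that complex, and the factor MEF2A, both named after their values were seen, rose by 0.78 (adjusted p = 3.98e-06) and 0.59 (adjusted p = 2.63e-05). The CCM complex did not change as a whole. PDCD10, also of that complex, was the lower gene, with a log2 fold change of -0.26 (adjusted p = 0.00189). KRIT1, a further part of it, was not called (-0.069, adjusted p = 0.305). Both were named after their values were seen. TGFβ signalling induces KLF10 and KLF11, and of 9 genes of this pathway 3 were higher and 2 lower (median -0.08), against 24.1% and 22.0% of all tested genes. The 3 ligand genes differed in direction. TGFB2 fell by 2.25 on the log2 scale (adjusted p = 0.00115, with SE 0.266), with 35.0, 63.2 and 34.4 CPM under shCdGAP against 211 ± 4.81 CPM (SD, n = 3) under shCon. The other ligand genes, TGFB1 and TGFB3, both named after their values were seen, rose by 0.31 (adjusted p = 0.00326) and 0.77 (adjusted p = 2.37e-06) on the log2 scale. The call of TGFB1 was lost without any 1 of the shCon libraries (adjusted p from 0.0159 to 0.0211). SMAD3, a transducer, rose by 0.16 on the log2 scale (adjusted p = 0.00754). The call of SMAD3 was lost without any single library other than shCdGAP replicate 2 (adjusted p from 0.0247 to 0.0562) and with DESeq2 (adjusted p = 0.0101). The glucocorticoid receptor induces KLF9. Its gene NR3C1, named after its value was seen, rose by 0.47 on the log2 scale (adjusted p = 1.07e-05, with SE 0.0389). Of the 4 receptor-induced genes followed, FKBP5 fell and none rose, where 22.0% and 24.1% of all tested genes did. FKBP5 was named after its value was seen. SGK1, the most abundant, had a log2 fold change of -0.30 (adjusted p = 0.161), and of -0.53 without shCdGAP replicate 2, where it was called.

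Of 8 listed corepressors of the family, 6 fell and 1 rose (median log2 fold change -0.29), where 22.0% and 24.1% of all tested genes did. The list was written with earlier results of these data known, so nothing is read from this count. HDAC1, the deacetylase with the highest level, fell by 0.30 on the log2 scale (adjusted p = 0.000308, with SE 0.0427). Named after their values were seen, CTBP1 fell by 0.44 (adjusted p = 6.34e-06, with SE 0.0336), and SIN3B, a scaffold of the Sin3 complex, rose by 0.51 (adjusted p = 1.50e-05, with SE 0.0443). SIN3A, the other Sin3 scaffold listed and also named after its value was seen, went the other way, at -0.28 (adjusted p = 0.000516). None of the 8 had an absolute log2 fold change above 1. Among acetyltransferases that activate transcription with KLF factors, CREBBP did not pass (log2 fold change 0.05, adjusted p = 0.684). It was called at 0.16 without shCdGAP replicate 2 and lay below 0 without either other shCdGAP library. KAT2B, named after its value was seen, fell from 56.9 ± 0.768 to 29.1 ± 0.924 CPM (SD, n = 3 each, adjusted p = 2.59e-07), and KAT2A was listed at 0 in every library, a value from which no absence of the gene's RNA is read, since whether its reads were counted elsewhere was not tested.

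Of 10 ubiquitin ligases and other enzymes that act on KLF proteins, 3 were higher and 4 lower, against 24.1% and 22.0% of all tested genes (median log2 fold change 0.00014). FBXO32, a ligase subunit reported to target KLF4, rose to 45.6 ± 5.21 CPM from 8.71 ± 0.639 CPM (SD, n = 3 each), by 2.39 on the log2 scale (adjusted p = 1.56e-07, with SE 0.0939). VHL, another ligase subunit, fell by 0.59 on the log2 scale (adjusted p = 1.38e-06). WWP1, a ligase that acts on KLF5 and KLF2 and was named after its value was seen, rose by 0.58 (adjusted p = 2.84e-06). Of 20 genes reported as targets of single members, 14 were tested, and 3 were higher, 2 lower and 9 not called, so that 5 of 14 were called where 46.2% of all tested genes were (median log2 fold change 0.11). CDKN1A, the cell cycle inhibitor p21 reported as a target of KLF4 and KLF6, rose to 32.8 ± 3.26 CPM from 14.4 ± 0.472 CPM (SD, n = 3 each), by 1.18 on the log2 scale (adjusted p = 2.86e-06). ATF3, a stress factor reported as a target of KLF6, rose by 1.21 (adjusted p = 1.00e-05), and LAMA3, a laminin chain named after its value was seen, by 0.81 (adjusted p = 1.19e-06). These were the 3 higher genes. The 2 lower genes, also named after their values were seen, were TFAP2A and BIRC5. Their log2 fold changes were -0.41 (adjusted p = 5.15e-05) and -0.28 (adjusted p = 0.0061). FASN, a fatty acid synthesis gene reported as a target of KLF5, had a log2 fold change of 0.12 and did not pass (adjusted p = 0.160), but was called at 0.19 without shCdGAP replicate 2.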

How the data were processed

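RNA of 3 shCdGAP and 3 shCon samples of PC-3 cells was sequenced. The authors deposited raw counts per gene, 1 table per sample. Per the file headers these were made with featureCounts 1.6.0 on the Ensembl release 77 annotation of GRCh38 with pairs counted by strand, while the submitters' processing notes name STAR 2.5.1b and featureCounts 1.4.6 and the methods a single-read kit. Multi-mapping reads were left out of these counts, which lowers the values of genes with near-identical copies. Symbols were matched for 56105 of 64253 genes (87.3%). The length column (merged exons) was used for RPKM.

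The counts went through filterByExpr, TMM scaling and the robust quasi-likelihood fit of edgeR 4.0.16 under R 4.3.3, with Benjamini-Hochberg adjustment over 16439 genes. Tables were made in Python 3.11.15. Standard errors are the absolute log2 fold change over the square root of F. The fit was tested on simulated data. The members and all gene lists were chosen with earlier results of these data known. Named besides the KLF and SP genes were the members of each list past both thresholds and the most abundant, for neighbours the nearest on each side and the extremes, and others where marked. A few genes that this rule or the marker lists name are not reported here. Each pair of libraries of a group differed by more than sampling noise, with a chi-square per degree of freedom from 2.58 to 32.7. Counting error and the spread between 3 samples limit the precision, and exact permutation of 3 against 3 cannot give a two-sided p under 0.1. The methods name independent samples, but nothing ties them to separate cultures, so p-values measure the spread between these samples. Alternatives were DESeq2 1.42.0, other scalings, filters, neighbour windows, leaving out single libraries, glmTreat and a replicate block.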

Additional observations from a re-analysis of the deposited data

How the results depend on the processing

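The counts of KLF members past both thresholds stayed at 1 higher and 1 lower under all alternatives. At the adjusted p-value alone, the number of higher members was 5 without a filter on low counts in place of 2, and with each library left out it ran from 2 to 4 (4 without shCdGAP replicate 2). The number of lower members ran from 1 (without shCdGAP replicate 1) to 5 (without shCdGAP replicate 2) when each library was left out. Of the other KLF and SP genes, KLF12 was no longer called by glmTreat against a log2 fold change of 1, which left 0 lower genes in place of 1. The distance of KLF4 from the median of its chromosome 9 neighbours, 0.95 as reported, was 0.75 in a window of 10 Mb and 0.74 with all tested neighbours, and that of KLF5 stayed between -0.21 and -0.12. CREBBP turned direction when shCdGAP replicate 1 or 3 was left out, its log2 fold change being -0.014 and -0.032, and running from -0.032 to 0.16 when each library was left out. No member turned direction under any alternative. With the replicate number as a block, 2 members were higher and 2 lower at the adjusted p-value alone, KLF4 lay 0.95 and KLF5 -0.14 from their neighbours, and the block changed none of these counts, while SMAD3 lost its call (adjusted p = 0.0135). The labels give same-numbered libraries only a shared number. Their deviations from the group means correlated at 0.0306, 0.0499 and 0.0469, small values but each the highest for its libraries. Whether same-numbered libraries were handled together was not tested. The cause of the changes between settings was not tested. KLF2 and KLF17 rest on the fewest reads among the tested KLF genes.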
